A study of Mus musculus with 12 samples.

Results

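Matrix metalloproteinases (MMPs) and the tissue inhibitors of metalloproteinases (TIMPs) were followed at the RNA level in hernia-associated fibroblasts (HAFs) of the mouse lower abdominal muscle. The set was chosen by gene name and holds 9 genes, the MMPs Mmp2, Mmp3, Mmp11, Mmp14, Mmp19 and Mmp23 and the inhibitors Timp1, Timp2 and Timp3. Of these, 8 are among the 13233 genes of the expression table, 5 MMPs and 3 TIMPs. Mmp3 was not analysed here. All cells were primary fibroblasts of Arom hum mice, which carry a human aromatase transgene under its own human promoters, so every group, controls included, came from animals that make excess estrogen in muscle. The cells were passaged once, starved of serum, and treated for 48 h in 4 groups of 3 samples numbered 1 to 3. The vehicle group received ethanol and DMSO, the E2 group 10 nM estradiol (E2), the E2 plus fulvestrant group 10 nM E2 and 100 nM fulvestrant, and the fulvestrant group 100 nM fulvestrant without added E2. Fulvestrant is an antagonist that blocks and degrades the estrogen receptors. The sources used here do not say whether the numbered samples came from separate animals. The p-values measure the spread between these samples, in the main fit what is left after differences between replicate numbers are removed. That spread may be technical. The age of the donor mice is likewise not given in the sources used here.

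MMPs are zinc-dependent enzymes that cut extracellular matrix proteins, and most are made as inactive proenzymes. Mmp14 sits in the plasma membrane and activates the secreted gelatinase Mmp2. Timp2 takes part in that step as a bridge between them, while at higher amounts it blocks both enzymes. Mmp11 and Mmp23 are cut to their active form inside the cell by furin-like convertases, and Mmp19 is a secreted enzyme with several basement membrane substrates. The TIMPs bind active MMPs one to one. Timp1 is a soluble inhibitor that acts poorly on membrane-type MMPs, and Timp3 is bound to the matrix and also inhibits several ADAM and ADAMTS proteases. RNA levels do not measure enzyme activity, which also depends on activation and inhibition of the protein.

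Positions are those of the mouse genome build GRCm38 (GENCODE M21). Timp1 spans chrX:20870166-20874735 inside Syn1, a gene on the other strand, and Timp3 spans chr10:86300372-86349506 inside Syn3, also on the other strand. Timp2 spans chr11:118301069-118355740, Mmp23 chr4:155650655-155653384, Mmp2 chr8:92827291-92853420, Mmp14 chr14:54431612-54445364, Mmp11 chr10:75923222-75936496 and Mmp19 chr10:128790910-128800824. Exons of the other strand overlap 28.3% of the Mmp19 exon sequence, 21.3% of that of Timp3 and 5.58% of that of Mmp11. No member shares exon sequence with another gene on its own strand, and the authors counted reads by strand.

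Promoter sequences are shown for the members with called changes whose sequence before the first annotated exon could be read. They are from RefSeq (GRCm38.p6), each 5′ to 3′ on the gene's strand and ending at the base before the first exon, with capitals marking a match to the Sp1 motif GGGCGG on either strand.
Timp1, chrX:20869916-20870165, plus strand: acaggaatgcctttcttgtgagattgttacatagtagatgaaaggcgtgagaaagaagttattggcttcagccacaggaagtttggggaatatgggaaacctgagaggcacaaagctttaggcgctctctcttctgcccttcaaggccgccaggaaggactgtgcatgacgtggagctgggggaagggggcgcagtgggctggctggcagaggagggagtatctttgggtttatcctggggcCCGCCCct
Timp3, chr10:86300162-86300371, plus strand: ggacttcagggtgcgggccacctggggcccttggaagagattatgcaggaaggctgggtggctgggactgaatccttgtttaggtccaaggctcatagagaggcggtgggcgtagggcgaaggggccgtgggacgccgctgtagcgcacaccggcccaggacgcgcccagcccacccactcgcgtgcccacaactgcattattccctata
Mmp23, chr4:155653385-155653634, minus strand: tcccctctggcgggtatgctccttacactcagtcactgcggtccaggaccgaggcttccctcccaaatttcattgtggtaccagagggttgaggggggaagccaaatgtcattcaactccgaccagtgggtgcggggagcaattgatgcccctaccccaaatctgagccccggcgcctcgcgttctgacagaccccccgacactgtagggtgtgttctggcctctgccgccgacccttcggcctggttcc
A window of 300 bases around the start was available for 7 of the 9 genes, and Mmp2 and Mmp19 had no entry. The window of Timp2 lies wholly within annotated exons before its start site and is not printed. The AP-1 motif TGANTCA matched in none of the windows of the 6 measured genes that had one, against 7.81% of all 32851 windows. The palindromic estrogen response element, searched on both strands, also had no match in them, against 0.07% of all windows. The Sp1 motif GGGCGG had at least 1 match, on either strand, in the windows of Timp1, Timp2, Timp3, Mmp11, Mmp14 and 1 of the 2 starts of Mmp23, against 35.7% of all windows. These matches describe letters in a short window and were not tied to binding.

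Read numbers were worked back from the normalized counts, as multiples of the value of 1 read inferred for each sample. They ran from 18827792 to 44040507 per sample over the listed genes and from 303 to 121289 for a member in a sample. All 9 fibroblast markers were present, Pdgfra and Esr1 among them, and their summed level per kb of exon ranged from 62149 to 65139 in the vehicle samples, from 68524 to 78018 in the E2 samples, from 54292 to 56278 with E2 plus fulvestrant and from 51671 to 55969 with fulvestrant. The collagen genes Col1a1, Col1a2 and Col3a1 held 42% to 67.4% of this sum in a sample. Without them the sum of the other 6 markers was 22357 to 34269 with vehicle, 22326 to 37893 with E2, 23256 to 30929 with E2 plus fulvestrant and 23459 to 30532 with fulvestrant, and these ranges overlapped. None of the 6 myogenic, 5 endothelial or 5 epithelial and mesothelial markers is listed in the table, in which no gene has fewer than 10 of these inferred reads in any sample. Of 6 leukocyte markers Cd68 and Lyz2 are listed, at a summed 69.9 to 297.6 per kb, and of 5 pericyte and smooth muscle markers Cspg4, Mcam and Myh11 are, at a summed 188.4 to 389.6 per kb. The part of these markers in the member results was not tested, and in bulk RNA fewer cells of a type and less RNA per cell cannot be told apart. Pgr, the textbook E2 target, checked the treatments: its normalized counts were 25.37, 85.26 and 104.4 in the vehicle samples, 145, 267.5 and 304 with E2, 14.77, 28.41 and 26.98 with E2 plus fulvestrant, and 13.03, 21.49 and 16.22 with fulvestrant. Pgr was higher with E2 in each replicate number and lower with fulvestrant in each.

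Replicate 1 stood apart in every group. Its 4 samples lay outside the range of the other 8 for 45% of all genes, and for the 5 MMPs of the set. Mmp2, Mmp11, Mmp14 and Mmp19 were lower in replicate 1, by 0.59 to 0.74 on the log2 scale on average, and Mmp23 was 0.67 higher. Replicate number took 89% of the log2 variance of Mmp2, 90.1% of Mmp11, 91.6% of Mmp14 and 96% of Mmp19, and 50.5% to 66.1% for Mmp23, Timp1 and Timp3. Timp2 was the exception, with 87.5% of its variance between treatment groups and 3.84% between replicate numbers. What the number stands for (animal, day or batch) is not given in the sources used here, and samples were therefore compared within replicate number, with the number as a block in a limma fit on log2(normalized count + 1). A gene was called when its Benjamini-Hochberg adjusted p over all genes was under 0.05 and its fold change over 1.2.

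**Figure D1:**
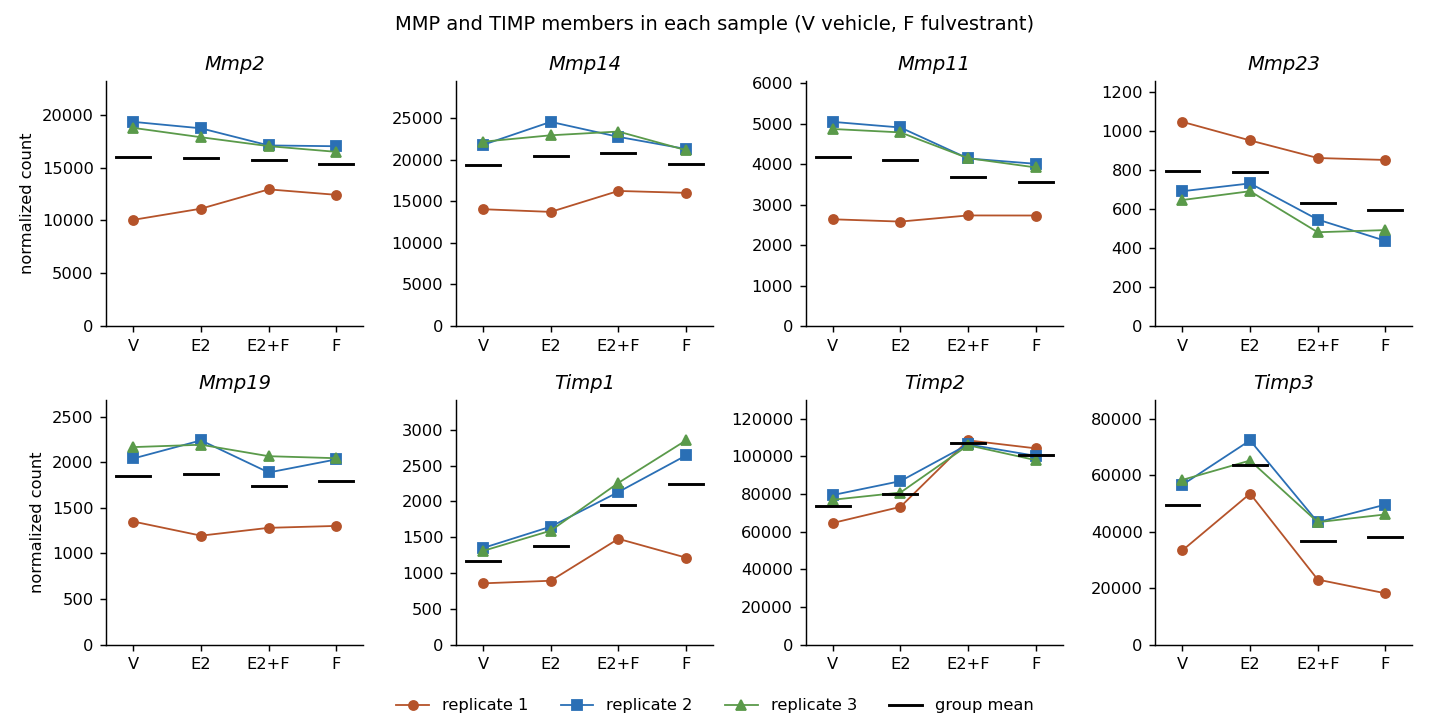
Normalized count of the 8 measured members (1 panel each) in the vehicle (V), E2, E2 plus fulvestrant (E2+F) and fulvestrant (F) groups. Points are single samples, lines join samples of the same replicate number and black bars are group means (n = 3). Replicate 1 is below the other replicates for Mmp2, Mmp11, Mmp14 and Mmp19 and above them for Mmp23, and Timp2 rises from at most 86824 without fulvestrant to at least 97980 with it.

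Per kb of exon, Timp2 was the most abundant member in all 12 samples, at 16572 to 27846 normalized counts per kb, above 99.7% of listed genes. Timp3 (2232 to 8895 per kb), Mmp2 (mean 4666) and Mmp14 (mean 3361) followed. Their order was not fixed, since Timp3 ranked between place 2 and place 4 among the members and Mmp2 between 2 and 3. Timp1 (mean 1897 per kb) and Mmp11 (mean 1395) shared places 5 and 6, and Mmp19 (mean 515) and Mmp23 (mean 300) the last places, 7 and 8. Transcripts of the inhibitors thus outnumbered those of these 5 enzymes per length in each sample, with a summed MMP to TIMP ratio of 0.256 to 0.42.

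The first comparison asked how blocking the estrogen receptors changed these genes in cells that also received E2. With E2 plus fulvestrant against E2, Timp1 and Timp2 rose, Timp3 and Mmp23 fell, and the other 4 MMPs were not called. The 4 calls among 8 members stand beside 9.6% of all genes called, 4.97% higher and 4.62% lower. Members and tests were chosen with earlier results of these data known, so these shares are no test of the set. The same question without added E2 was asked by fulvestrant against vehicle, which shares no sample with the first comparison. Both came from the same fit to all 12 samples, with a shared estimate of the spread, so they are not independent. In fulvestrant against vehicle, Timp1 and Timp2 rose and Mmp23 fell. Of all genes, 12.5% were called there, 6.76% higher and 5.69% lower. Without the replicate block no member was called by limma in either comparison, with the smallest adjusted p 0.525 and 0.402, both for Timp2. In that fit 1 and 2 of 8 members had an unadjusted p under 0.05, and 0.521% and 0.544% of all genes were called. Without replicate 1, with the block kept, 3 members were called in the first comparison (Timp1, Timp3, Mmp23) and 4 in the second (Mmp11, Timp1, Timp2, Mmp23), where that fit called 12.2% and 17.5% of all genes.

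**Figure D2:**
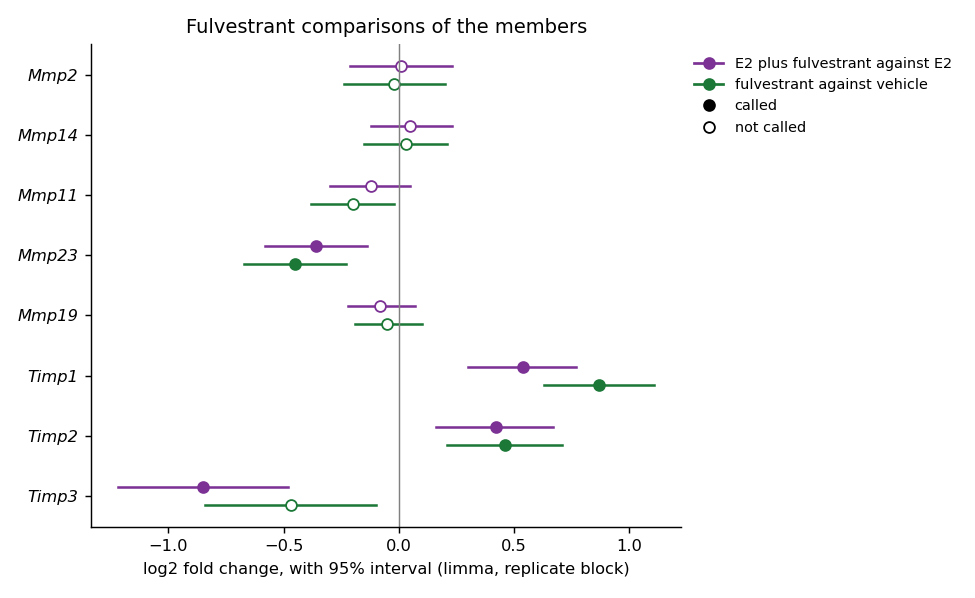
Log2 fold change of each member with its 95% interval from the limma fit with the replicate block, for E2 plus fulvestrant against E2 (purple) and fulvestrant against vehicle (green). Filled points were called. Timp1 and Timp2 lie above 0 and Mmp23 below it in both comparisons, while the intervals of Mmp2, Mmp14 and Mmp19 include 0 in both.

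Timp2, the inhibitor that also takes part in Mmp2 activation, had the clearest separation between groups. Its normalized counts were 64566, 79417 and 76927 in vehicle samples 1 to 3 and 73136, 86824 and 80733 in E2 samples 1 to 3. They were 108486, 106327 and 105899 with E2 plus fulvestrant and 104247, 100261 and 97980 with fulvestrant. Every sample with fulvestrant lay above every sample without it. Groups did not overlap, in either direction, for 12.5% of all genes in the E2 comparison and for 11.1% in the comparison with vehicle. For all samples with fulvestrant against all samples without it, the share of genes was not computed. Timp2 rose by 0.42 on the log2 scale (SE 0.11, adjusted p = 0.0384) over E2 and by 0.46 (SE 0.11, adjusted p = 0.0215) over vehicle, the first being a 1.34-fold increase. Within replicate numbers 1, 2 and 3 the difference was 0.57, 0.29 and 0.39 over E2 and 0.69, 0.34 and 0.35 over vehicle. The call over E2 was lost without any 1 of the replicate numbers, without any single E2 or E2 plus fulvestrant sample, and without fulvestrant sample 2 or 3. The call over vehicle was lost without number 2 or 3, without vehicle sample 1 and without any single fulvestrant sample. Both were lost with quantile normalization and with only the 2 groups in the fit, and over all settings the values were 0.34 to 0.48 and 0.34 to 0.52.

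Timp1, the soluble inhibitor, had the largest relative increase of the members. Its normalized counts were 855, 1349 and 1308 with vehicle, 891, 1647 and 1591 with E2, 1477, 2131 and 2259 with E2 plus fulvestrant and 1214, 2642 and 2853 with fulvestrant. The samples of replicate 1 were lowest in each group, so the groups overlapped, but within each number the fulvestrant sample was higher. Timp1 rose by 0.54 (SE 0.11, adjusted p = 0.00962) over E2 and by 0.87 (SE 0.11, adjusted p = 5.9e-04) over vehicle, which is 1.45-fold and 1.82-fold. The within-replicate differences were 0.73, 0.37 and 0.51 over E2 and 0.51, 0.97 and 1.12 over vehicle. Thus replicate 1 had the larger difference in cells given E2 and the smaller one in cells without it. The call over E2 was lost without replicate number 2, without number 3 and without the E2 plus fulvestrant sample of replicate 1, while that over vehicle held in every fit with the block.

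Timp3, the matrix-bound inhibitor, went the other way. Its normalized counts were 33406, 56684 and 58423 with vehicle, 53538, 72441 and 65285 with E2, 23039, 43414 and 43405 with E2 plus fulvestrant and 18174, 49641 and 46156 with fulvestrant. The E2 samples were all above the E2 plus fulvestrant samples, and the E2 sample was the highest of the 4 in each replicate number. Timp3 fell by 0.85 on the log2 scale (SE 0.17, adjusted p = 0.00859) with E2 plus fulvestrant against E2, which is 1.80-fold, with within-replicate differences of -1.22, -0.74 and -0.59. Against vehicle, fulvestrant gave -0.47 (SE 0.17, 95% interval -0.84 to -0.10, adjusted p = 0.0823), with -0.88, -0.19 and -0.34 in replicates 1 to 3, and Timp3 was not called. Without replicate 1 that difference was -0.27 (adjusted p = 0.06). In the fit of fulvestrant against vehicle without the E2 sample of replicate 1, Timp3 was called. The Timp3 call against E2 was lost without replicate number 2 or number 3.

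Mmp23, a small membrane-anchored MMP and on average the least abundant member, was the only one of the 5 MMPs of the set that was called. Its normalized counts were 1045, 690 and 645 with vehicle, 950, 730 and 690 with E2, 860, 545 and 480 with E2 plus fulvestrant and 850, 436 and 491 with fulvestrant. Replicate 1 was the highest in each group, and within each number the fulvestrant sample was the lower one. Mmp23 fell by 0.36 (SE 0.10, adjusted p = 0.0384) against E2 and by 0.45 (SE 0.10, adjusted p = 0.0122) against vehicle. The within-replicate differences were -0.14, -0.42 and -0.52 against E2 and -0.30, -0.66 and -0.39 against vehicle. The Mmp23 call was lost without replicate number 2 or 3 and with only the 2 groups in the fit in both comparisons. Against E2 it was also lost without sample 2 or 3 of vehicle or E2, without any single E2 plus fulvestrant sample and without the variance trend, and against vehicle without sample 2 of vehicle or of fulvestrant. The values stayed between -0.47 and -0.28 against E2 and between -0.54 and -0.33 against vehicle.

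Mmp2 and Mmp14, the secreted gelatinase and its membrane activator, were not called in any comparison. For Mmp2, normalized counts were 10049, 19321 and 18751 with vehicle, 11106, 18710 and 17865 with E2, 12931, 17091 and 17022 with E2 plus fulvestrant and 12415, 17014 and 16482 with fulvestrant. Replicate 1 and the other replicates moved in opposite directions. The Mmp2 difference over E2 was 0.22 in replicate 1 and -0.13 and -0.07 in replicates 2 and 3, and over vehicle it was 0.31, -0.18 and -0.19. The mean differences were 0.01 (95% interval -0.21 to 0.23) and -0.02 (-0.24 to 0.20). Mmp14 had the same split over vehicle, with 0.19, -0.03 and -0.07, and differed by 0.05 (95% interval -0.12 to 0.23) over E2 and by 0.03 (-0.15 to 0.21) over vehicle.

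Mmp11 (stromelysin-3), a stromal enzyme activated by furin, had normalized counts of 2637, 5044 and 4868 with vehicle, 2580, 4905 and 4784 with E2, 2732, 4140 and 4147 with E2 plus fulvestrant and 2730, 4008 and 3918 with fulvestrant. Replicates 2 and 3 were lower with fulvestrant and replicate 1 was level. The Mmp11 differences against vehicle were 0.05, -0.33 and -0.31 for replicates 1 to 3, a mean of -0.20 (SE 0.08, adjusted p = 0.12), and against E2 they were 0.08, -0.24 and -0.21, a mean of -0.12 (SE 0.08, adjusted p = 0.353). Without replicate 1, Mmp11 was called against vehicle, at -0.32 (adjusted p = 0.00161). Mmp19 ran from 1196 to 2243 normalized counts over the 12 samples and differed by -0.08 (95% interval -0.22 to 0.07) and -0.05 (-0.19 to 0.10) in the 2 fulvestrant comparisons.

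The comparison of E2 with vehicle asked what added E2 did on its own. No member was called by limma, and 10 genes, 0.0756% of those tested, were. At an unadjusted p under 0.05 the count was 1 of 8 members, Timp3, and 1340 genes. Timp3 was higher with E2 in each replicate number, by 0.68, 0.35 and 0.16, a mean of 0.40 (95% interval 0.03 to 0.77, adjusted p = 0.476). Timp1 was 0.21 higher (-0.03 to 0.45) and Timp2 0.13 higher (-0.13 to 0.38), each in 3 of 3 replicate numbers and not called. The 5 MMPs of the set had mean differences between -0.03 and 0.06. E2 plus fulvestrant against fulvestrant, which asks for an E2 effect under receptor blockade, gave no called member and 0% of all genes by limma, with 0 members and 255 genes at an unadjusted p under 0.05.

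Whether the fulvestrant difference changed with E2 was tested as an interaction of both treatments. No member and 0% of genes were called by limma, with 0 members and 501 genes at an unadjusted p under 0.05. For Timp1 the difference over E2 was 0.33 smaller than over vehicle on the log2 scale (interaction -0.33, 95% interval -0.67 to 0.01, adjusted p = 0.944), with replicates split at 0.22, -0.60 and -0.62. For Timp3 the interaction was -0.38 (-0.90 to 0.14, adjusted p = 0.944), negative in 3 of 3 replicate numbers. So the Timp3 call in one comparison and not in the other is no shown difference between them. In samples of replicates 2 and 3 alone the Timp1 interaction was -0.61, not called with the block (limma adjusted p = 0.0553) and called without it (adjusted p = 0.0223, 1 of 17 genes called), the latter fit having been chosen after seeing the data.

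Ratios within a sample do not depend on how the sample was scaled, and they are given without a test. The Timp3 to Timp2 ratio per kb of exon was 0.248, 0.341 and 0.363 with vehicle, 0.35, 0.399 and 0.387 with E2, 0.102, 0.195 and 0.196 with E2 plus fulvestrant and 0.0834, 0.237 and 0.225 with fulvestrant. All 6 fulvestrant samples were below the 6 others. How often ratios of other genes separate in this way was not computed. Timp3 made up 19% to 26.9% of the summed TIMP level without fulvestrant and 7.35% to 17.5% with it, while Timp2 made up 67.5% to 76.6% and 73.9% to 88.1%. The log2 Mmp14 to Timp2 ratio differed by -0.36 ± 0.04 (SD, n = 3 replicate numbers) with E2 plus fulvestrant against E2, by -0.43 ± 0.07 with fulvestrant against vehicle and by -0.06 ± 0.13 with E2 against vehicle. For Mmp2 to Timp2 the same differences were -0.41 ± 0.06, -0.48 ± 0.08 and -0.12 ± 0.07. In both ratios the enzymes had no called change, and the Timp2 increase was called in both fulvestrant comparisons and not with E2 alone. The log2 ratio of the 5 MMPs to the 3 TIMPs per kb differed by -0.20 ± 0.08, -0.39 ± 0.07 and -0.18 ± 0.07, so the difference with E2 alone was about as large as that with E2 plus fulvestrant against E2. Not divided by length, the 3 differences were 0.00, -0.22 and -0.21, since length sets the weight of each gene. A ratio of Mmp3 to Timp1 was not computed because Mmp3 was not analysed here.

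**Figure D3:**
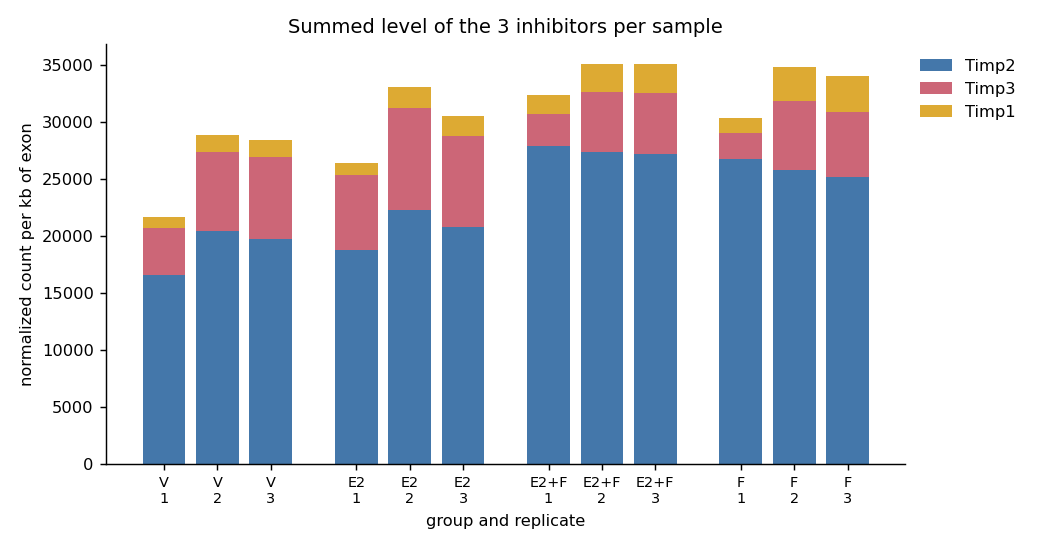
Stacked normalized counts per kb of exon of Timp2, Timp3 and Timp1 in each of the 12 samples (group and replicate on the x axis). Timp2 is the largest share in each sample, and the Timp3 segment is 19% to 26.9% of the stack without fulvestrant and 7.35% to 17.5% with it.

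Other genes of the pathway were taken from 4 lists, chosen with earlier results of these data known, of which 56 of 76 genes were measured. Their counts stand beside 4.97% of all genes called higher and 4.62% called lower against E2, and 6.76% and 5.69% against vehicle, and none of the list calls was kept without the replicate block. Of 18 further MMP and TIMP genes 5 were measured, and Mmp9 and Mmp16 fell in both fulvestrant comparisons while Mmp15, Mmp17 and Mmp28 were not called in any. Mmp16, a membrane-type MMP, had normalized counts of 2889, 1037 and 1098 with vehicle, 2549, 1147 and 1019 with E2, 1283, 622.3 and 564.8 with E2 plus fulvestrant and 1365, 596.8 and 559.5 with fulvestrant. It fell by 0.91 (SE 0.08, adjusted p = 5.1e-05) against E2 and by 0.95 (SE 0.08, adjusted p = 3.6e-05) against vehicle. Mmp9, the other gelatinase, was low, at 67.86 to 91.73 normalized counts without fulvestrant and 27.57 to 58.1 with it, and fell by 0.86 (SE 0.19, adjusted p = 0.0162) and by 0.95 (SE 0.19, adjusted p = 0.00813). The median over the 5 genes was -0.443 and -0.236, against 0.012 and 0.007 over all genes.

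Among activators, inhibitors and surface partners, 18 of 24 were measured. Against E2, 2 rose, 4 fell and 12 were not called. Against vehicle, 3 rose, 2 fell and 13 were not called. Serpine2, a serpin that inhibits serine proteases such as thrombin and the plasminogen activators, fell by 0.62 against E2 and by 0.75 against vehicle (SE 0.06 in both, adjusted p = 8.8e-05 and 2.5e-05). Cd44, a hyaluronan receptor that can hold MMPs at the cell surface, rose in both comparisons, by 0.58 and 0.60, and Thbs2, a matricellular protein that takes part in clearing MMP2, fell by 0.60 and by 0.50. Plat, a plasminogen activator, fell by 0.35 (SE 0.06, adjusted p = 0.00509) against E2 and differed by -0.09 (adjusted p = 0.353) against vehicle. The medians of the list were -0.060 and 0.024.

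The transcription factors of the list all lie in families known to act on MMP and TIMP promoters. All 18 were measured, and 7 rose against E2 and 8 against vehicle, with none lower, beside 4.97% and 6.76% of all genes called higher. The list was chosen with earlier results of these data known, so these counts are no test of it. Without the replicate block none of the 18 was called by limma in either comparison, with 0 and 2 at an unadjusted p under 0.05. The 7 called in both were Fosl1, Jun, Junb, Jund, Ets1, Ets2 and Egr1. Fosl1, an AP-1 subunit, rose by 1.43 (SE 0.19, adjusted p = 8.9e-04) over E2 and by 1.21 (SE 0.19, adjusted p = 0.00201) over vehicle, from normalized counts of 115.4, 1128 and 1113 with E2 to 464.8, 2350 and 2588 with E2 plus fulvestrant. Ets1 rose by 0.45 (SE 0.06, adjusted p = 0.00132) and by 0.47 (SE 0.06, adjusted p = 8.1e-04), Ets2 by 0.40 in both, and Jund by 0.35 and 0.55. The list medians were 0.343 and 0.405, against 0.012 and 0.007 over all genes.

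Of the matrix substrates, 15 of 16 were measured. Against E2, 3 rose and 3 fell, and against vehicle 3 rose and 2 fell. The basement membrane chains Col4a1 and Col4a2 rose, Col4a1 by 0.60 and 0.68 and Col4a2 by 0.51 and 0.56. The fibrillar collagen gene Col1a1 fell by 0.67 (SE 0.09, adjusted p = 0.00133) and by 0.43 (SE 0.09, adjusted p = 0.0119), and Col3a1 by 0.55 and by 0.49. Vcan, a large proteoglycan, rose by 0.77 over E2 (adjusted p = 0.0265) and by 1.10 over vehicle (adjusted p = 0.00386). The list medians were -0.199 and 0.104.

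None of the 56 genes was called by limma with E2 alone, with E2 plus fulvestrant against fulvestrant or for the interaction, with 11, 0 and 5 at an unadjusted p under 0.05. Without the block none was called in the fulvestrant comparisons either, with 7 and 8 at an unadjusted p under 0.05. Without replicate 1 and with the block, 15 of the 56 rose and 12 fell against E2, where that fit called 6.75% of all genes higher and 5.43% lower, and 17 rose and 8 fell against vehicle, where it called 10.1% and 7.41%. With E2 alone 3 rose, beside 0.385% of all genes called higher, and for the interaction 1 was called lower, beside 0.0831% of all genes.

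**Figure D4:**
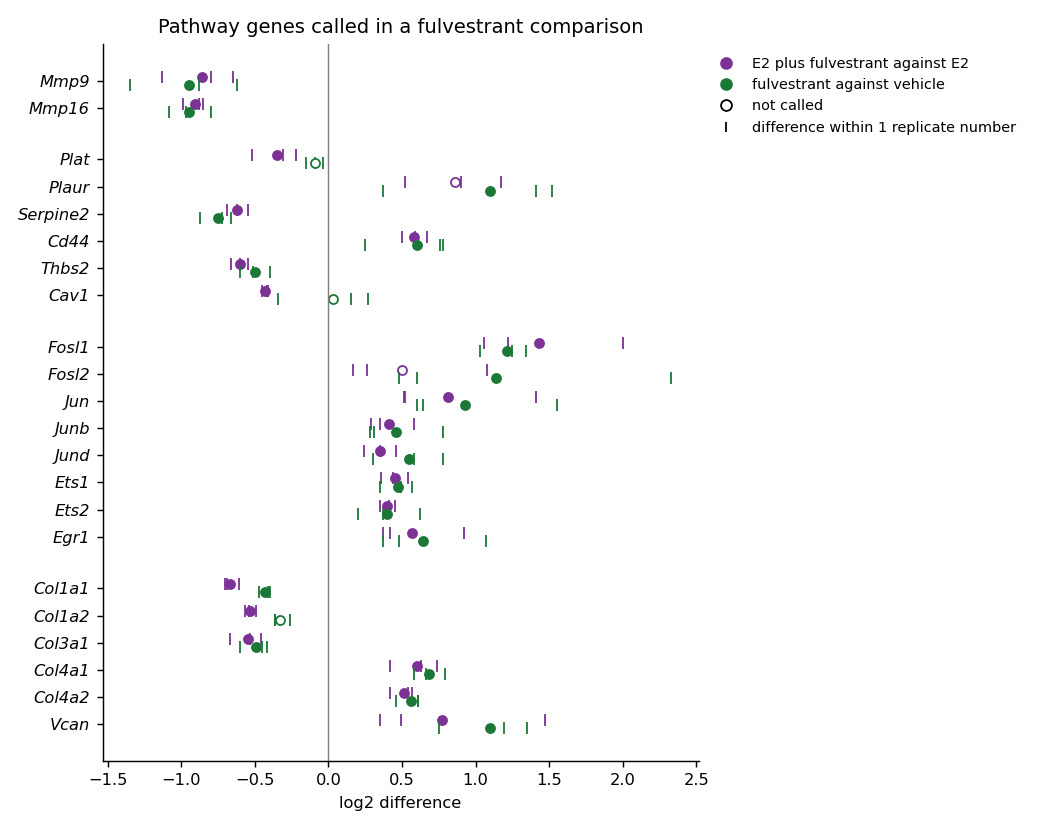
Log2 difference of list genes called in at least 1 fulvestrant comparison, as the mean over replicate numbers (points, filled when called) and within each replicate number (ticks). From top to bottom the blocks are other MMPs, activation and surface handling, transcription factors and matrix substrates. Each called transcription factor lies above 0 in both comparisons, and Col1a1, Col3a1, Mmp9 and Mmp16 lie below 0 in both.

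Patterns alike to the members were sought over the 12 samples after removing each replicate number's mean, as a description, since the points share treatment and library. Among members, Timp1 and Timp2 had a Pearson r of 0.85, Timp2 and Timp3 -0.79, Mmp23 and Timp1 -0.86, and Mmp11 and Mmp23 0.84, while Mmp2 and Mmp14 had 0.65. Of the other genes, the closest to 6 of the members were Tm4sf1 for Timp1 (r = 0.997), Fgfr1 for Timp2 (0.993), B3galt1 for Timp3 (0.967), Dkk2 for Mmp2 (0.969), Casp9 for Mmp14 (0.955) and Usp42 for Mmp19 (0.948).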

How the data were processed

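RNA-Seq was performed on ribosome-depleted total RNA from 12 samples. The signal deposited for each gene is a normalized count, made by the authors through trimming (Trimmomatic 0.39), alignment to mm10 (STAR 2.5.2), strand-aware counting (HTSeq 0.13.5) and division by size factors (DESeq2 1.37); versions are from the submitters' processing notes. Per the paper's methods the authors also adjusted for batch, but the deposited values still separate by replicate number. Reads were inferred from the normalized counts and used for depth only, and no listed gene fell under 10 of them in any sample (18827792 to 44040507 reads in total).

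Samples were grouped by label. Values were fitted as log2(value + 1) with limma 3.58.1 (R 4.3.3, variance trend) on all 12 samples with the replicate number as a block, and adjusted by Benjamini-Hochberg over 13233 genes. Same-numbered samples correlated at 0.631 to 0.923 in their deviations from group means over 18 pairs, although replicates 2 and 3 also correlated at 0.632 to 0.792. By average correlation 8 of 12 samples lay closest to their own number, every sample of replicate 1 among them. Vehicle sample 2, E2 plus fulvestrant sample 3 and fulvestrant samples 2 and 3 lay closer to the other of numbers 2 and 3. Replicate 1 was thus set apart, but a pairing within numbers 2 and 3 was not shown. Exon lengths came from GENCODE M21. Fits were tested on simulated data. Members, lists and tests were chosen with earlier results of these data known. Named genes were all members, at most 4 called genes with the smallest p per list and comparison, Pgr and the closest gene of each member. The plot of pathway genes also shows called list genes beyond that limit. Some genes that the rule selects are not reported here.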

Additional observations from a re-analysis of the deposited data

How the results depend on the processing

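The calls rest on the block for replicate number. Without it the called members went from 4 to 0 (E2 plus fulvestrant against E2) and from 3 to 0 (fulvestrant against vehicle), and the called genes from 1270 to 69, from 1648 to 72 and, for E2 against vehicle, from 10 to 1. With only the 2 groups compared in the fit, 2 members and 1148 genes were called in the first comparison and 1 member and 692 genes in the second, and 57 genes for E2 against vehicle, where dropping the variance trend gave 3. The cause was not tested. In samples of replicates 2 and 3 without a block, an alternative chosen after seeing the data, 4 members and 1723 genes were called in the first comparison, 5 members and 2439 genes in the second, and 1 member, Timp1, for the interaction, and the genes called were 101 for E2 against vehicle, 6 for E2 plus fulvestrant against fulvestrant and 17 for the interaction. Leaving out samples gave 0 to 4 members and 316 to 1611 genes in the first comparison, 1 to 4 members and 399 to 2312 genes in the second, and 0 to 59, 0 to 4 and 0 to 11 genes in the others. Not divided by length, the log2 ratio of the summed MMPs to the summed TIMPs differed by 0.00 and -0.22 in the 2 fulvestrant comparisons. Per kb of exon these differences were -0.20 and -0.39. No called member changed sign in any of these settings. The edgeR alternative was not run, because the deposited values are normalized counts and were not accepted as counts.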
